A study of Homo sapiens with 6 samples.

Results

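Fascin and 5 other actin-bundling genes were followed in 3 populations of MDA-MB-231, a mesenchymal-type human cell line of triple-negative breast cancer. They are FSCN1, the plastins PLS1, PLS3 and LCP1, and the alpha-actinins ACTN1 and ACTN4. All probe sets annotated to these symbols alone were taken, which gave 9 of 22215 probe sets on the array, 2 for FSCN1, 3 for ACTN1 and 1 for each of the others. No probe set named a member beside another gene. All 9 passed the filter on low signals (a mean of at least 44 units over the 6 arrays), as did 13329 probe sets in all.

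The populations were the parental line and its derivatives S1a and S1b, which the labels name as isolated seeder populations, with 2 arrays each. Seeders are tumour cells that can re-enter a tumour after a time in the bloodstream.  No drug, gene transfer or knockdown is named in the labels, and all cells were grown subconfluent in DMEM with 10% serum. Arrays of a population are called biological replicates without separate cultures being named, so the p-values rest on array-to-array spread that may be technical. No population isolated without seeding is among the samples.

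Bundling proteins tie actin filaments side by side. Fascin packs them into the tight, parallel bundles of filopodia and invadopodia; it is scarce in most normal epithelia and abundant in many invasive carcinomas. Plastins, also called fimbrins, cross-link filaments through 2 actin-binding domains on a single chain. PLS1 (I-plastin) is typical of the microvilli of intestine, LCP1 (L-plastin) of leukocytes, and PLS3 (T-plastin) of many solid tissues. Alpha-actinins work as antiparallel dimers that space filaments more widely, in stress fibres and at focal adhesions; ACTN1 and ACTN4 are the forms found outside muscle.

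RefSeq promoter windows (GRCh38.p14, 250 bases before to 50 after a start) were found for 5 of the 6 genes, in 12 windows; FSCN1 had no entry. The windows of the genes that rose with more than 1 probe set or as the only plastin (ACTN1, PLS1) are shown beside that of PLS3, which did not pass the test. Capitals mark a GC box (GGGCGG, or CCGCCC on the other strand), a TATA box (TATAAA, or TTTATA) and a CArG box, the element bound by serum response factor. The motifs were searched on both strands, and hits may overlap.
ACTN1, outermost start, chr14:68979253-68979552, minus strand: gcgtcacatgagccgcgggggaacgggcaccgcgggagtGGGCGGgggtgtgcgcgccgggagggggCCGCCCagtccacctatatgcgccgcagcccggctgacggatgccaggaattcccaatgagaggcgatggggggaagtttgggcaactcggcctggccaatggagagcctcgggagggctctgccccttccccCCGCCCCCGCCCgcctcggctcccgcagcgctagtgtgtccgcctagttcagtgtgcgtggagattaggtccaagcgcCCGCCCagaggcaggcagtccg
ACTN1, a start further inside, chr14:68977517-68977816, minus strand: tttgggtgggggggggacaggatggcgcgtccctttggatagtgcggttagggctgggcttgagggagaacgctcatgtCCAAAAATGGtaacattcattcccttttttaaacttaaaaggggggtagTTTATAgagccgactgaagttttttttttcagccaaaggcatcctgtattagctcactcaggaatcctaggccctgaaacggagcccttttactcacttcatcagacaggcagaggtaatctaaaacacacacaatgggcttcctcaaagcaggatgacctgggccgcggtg
PLS1, outermost start, chr3:142596143-142596442, plus strand: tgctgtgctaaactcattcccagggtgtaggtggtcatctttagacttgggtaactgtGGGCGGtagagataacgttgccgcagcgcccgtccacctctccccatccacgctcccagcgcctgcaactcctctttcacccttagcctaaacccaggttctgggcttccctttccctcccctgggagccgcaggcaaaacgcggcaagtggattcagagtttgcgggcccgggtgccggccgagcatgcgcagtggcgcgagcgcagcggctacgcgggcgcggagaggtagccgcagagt
PLS3, outermost start, chrX:115560924-115561223, plus strand: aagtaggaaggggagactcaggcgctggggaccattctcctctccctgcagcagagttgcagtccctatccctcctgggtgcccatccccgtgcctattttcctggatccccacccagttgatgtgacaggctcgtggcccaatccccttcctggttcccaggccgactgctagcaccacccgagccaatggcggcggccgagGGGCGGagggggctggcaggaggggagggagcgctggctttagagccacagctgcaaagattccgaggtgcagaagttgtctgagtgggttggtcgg

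A GC box was present in 44.9% of 34943 windows in the table, a TATA box in 11.6% and a CArG box in 1.3%. The outermost ACTN1 window held 5 GC boxes and that of ACTN4, not shown, 6, while the shown PLS1 and PLS3 windows held 1 each. LCP1, not shown, had 2 TATA boxes and 1 GC box in its window. Among the 12 member windows, a CArG box occurred in 1, the inner ACTN1 window. A motif match is a description of these letters and shows neither binding nor use of the start.

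Median signals ran from 87.6 to 106 units, with the parental arrays highest. For GAPDH, signal at the 3' end over that at the 5' end, a sign of RNA integrity, was 1.06 and 1.09 on the parental arrays and 0.976 to 0.998 on the isolate arrays. For ACTB this ratio did not separate the groups. It was 1.28 and 1.55 on the parental arrays and 1.34 to 1.46 on the isolate arrays. Poly-A spike-in controls averaged 7.12 and 7.75 (log2) on parental replicates 1 and 2 and 7.61 to 8.08 on the isolate arrays. The part of these values in the results was not tested. Of 6 genes typical of the line (VIM, CD44, EGFR, CAV1, MSN and AXL) all passed the filter. Of 5 luminal and epithelial genes, PGR and CDH1 did not pass it, while ESR1, ERBB2 and EPCAM did. ESR1 lay at the filter, with a mean of 44.2 units for its brightest probe set, and none of its other probe sets passed. Of 9 blood cell markers, those of leukocytes and the red-cell gene HBB, 4 did not pass the filter, including PTPRC and HBB. Of 7 fibroblast and endothelial markers, 6 did not. Differences in signal between probe sets are not read as differences in transcript amount, because probes differ in how strongly they bind. Sums of signal over a list weigh its brightest probe sets most.

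For both isolates averaged, 6 of the 9 member probe sets rose over parental cells (limma adjusted p under 0.05) and none fell; the 6 belong to FSCN1, ACTN1 and PLS1. Over all probe sets tested, 42% passed in this comparison, 19.5% as higher and 22.5% as lower. The median log2 change was 0.52 over the 9 probe sets and -0.05 over all tested. In S1a 7 of the 9 rose (34.9% of all tested passed, 16.5% as higher), and in S1b 6 rose and none fell (37.1% passed, 17.3% as higher and 19.8% as lower). All 4 isolate arrays lay above both parental arrays for 7 of the 9 probe sets, as they did for 24.4% of all tested, and below both for none of the 9 and 29.6% of all tested. With each array centred on its median signal, the share of higher among all calls went from 46.5% to 70.3%, and the median change of all tested to 0.14. The S1a and S1b comparisons share the parental arrays.

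**Figure D1:**
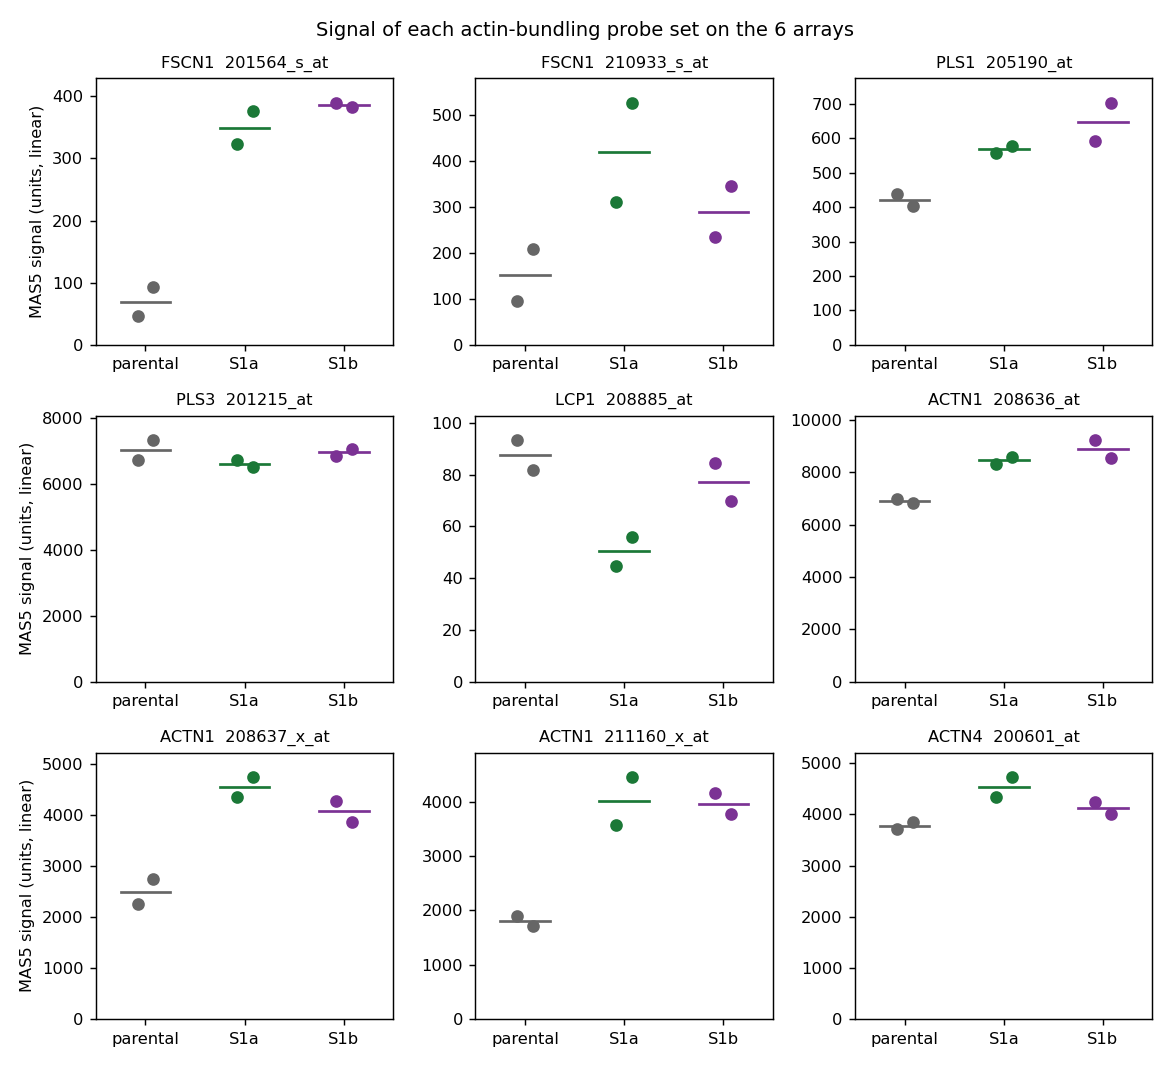
MAS5 signal (linear units, each axis from 0) of the 9 probe sets in parental, S1a and S1b cells; points are single arrays and lines the mean of 2. Both FSCN1 and all 3 ACTN1 probe sets lie higher on all 4 isolate arrays than on either parental array, and the PLS3 points overlap.

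FSCN1, the fascin gene, rose in both isolates. Its probe set 201564_s_at gave 45.5 and 92.8 units on the parental arrays, 322.6 and 377 in S1a, and 389.9 and 383.6 in S1b. The lowest isolate array was well above the higher parental array, so the groups did not overlap. The mean signal went from 69.1 ± 33.5 (SD, n = 2) to 349.8 ± 38.5 in S1a, a ratio of 5.06, and to 386.8 ± 4.52 in S1b, a ratio of 5.6. On the log2 scale the rise was 2.35 ± 0.27 in S1a (SE, limma adjusted p = 0.000152) and 2.5 ± 0.27 in S1b (limma adjusted p = 7.62e-05). For the mean of both isolates it was 2.42 ± 0.24 (limma adjusted p = 2.82e-05), and 0.405% of the probe sets tested had a larger value.

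The other FSCN1 probe set, 210933_s_at, gave a smaller and less even rise. It read 95.2 and 208 units on the parental arrays, 311 and 526 in S1a, and 234 and 345 in S1b. Again all isolate arrays lay above both parental arrays, but the lower S1b array was close to the higher parental one. The rise was 1.49 ± 0.35 on the log2 scale in S1a (SE, limma adjusted p = 0.00794), a ratio of 2.76 between means, and 0.99 ± 0.35 in S1b (limma adjusted p = 0.0474), a ratio of 1.91. For both isolates together it was 1.24 ± 0.3 (limma adjusted p = 0.0079). That call ended without parental replicate 1, at 0.69 (adjusted p = 0.0672), and without the variance trend (adjusted p = 0.0615). The S1a call ended without the variance trend (adjusted p = 0.0661) and without S1a replicate 2 (1.12, adjusted p = 0.0642). The S1b call ended with no filter (adjusted p = 0.0927), without the variance trend (0.159) and with array weights (0.0562), and without parental replicate 1 (0.44, adjusted p = 0.279), S1b replicate 1 (1.27, 0.0715) or S1b replicate 2 (0.71, 0.276). The rise of 201564_s_at passed in each isolate under every alternative run.

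The parental arrays themselves differed in FSCN1. Parental replicate 2 read 2.04 times as high as replicate 1 with 201564_s_at and 2.19 times with 210933_s_at. Both probe sets thus put the same parental array higher. With 210933_s_at replicate 2 was also the higher array in S1a (1.69 times) and in S1b (1.48 times). With 201564_s_at these ratios were 1.17 and 0.984. On the log2 scale the parental gaps were 0.97 with 201564_s_at and 1.1 with 210933_s_at, against a median size of 0.19 over all probe sets tested. Gaps at least as large were seen for 4.12% and 3.11% of them. The rise of 201564_s_at was 1.94 without parental replicate 1 and 2.91 without parental replicate 2. That of 210933_s_at was 0.69 and 1.79.

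The FSCN1 probe sets were set apart because they were known to differ, so their ratio is a description. The log2 ratio of 201564_s_at to 210933_s_at within an array was -1 and -1.13 on the parental arrays, 0.05 and -0.48 in S1a, and 0.73 and 0.15 in S1b. The parental arrays were the lowest, and the groups did not overlap. The mean ratio was 1.18 higher in the isolates than in parental cells. The parental ratios rest on the dim parental signals of 201564_s_at. These ratios do not say which probe set follows the transcript more closely.

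**Figure D2:**
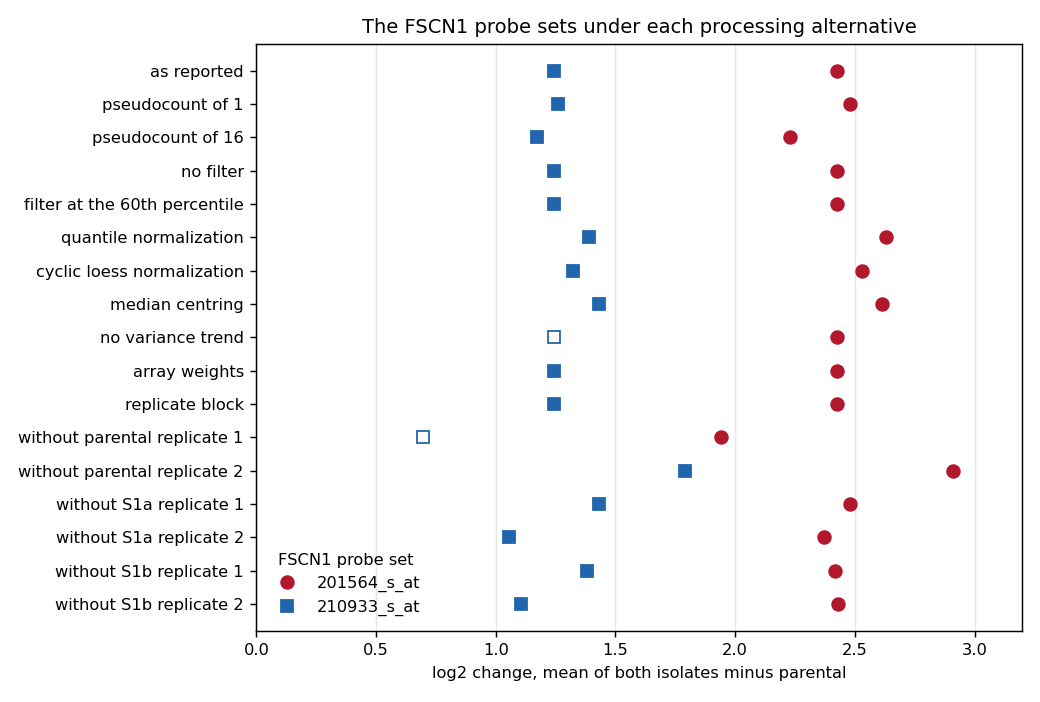
The log2 change of the FSCN1 probe sets, mean of both isolates minus parental, as reported and under each alternative; filled points have a limma adjusted p under 0.05. Circles (201564_s_at) run from 1.94 to 2.91 and stay filled, while squares (210933_s_at) run from 0.69 to 1.79 and are open without the variance trend and without parental replicate 1.

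Among the plastins PLS1 rose, while PLS3 and LCP1 did not pass. PLS1 (205190_at), the microvillus plastin, read 439 and 403 units in parental cells, 557 and 579 in S1a, and 592 and 704 in S1b. Every S1b array lay above every S1a array and every S1a array above both parental arrays. The rise was 0.43 ± 0.13 on the log2 scale in S1a (SE, limma adjusted p = 0.0229), a ratio of 1.35, and 0.61 ± 0.13 in S1b (limma adjusted p = 0.00352), a ratio of 1.54. For both isolates together it was 0.52 ± 0.11 (limma adjusted p = 0.00334). S1b and S1a were not shown to differ (0.18, 95% interval -0.09 to 0.46, limma adjusted p = 0.577). In S1a it no longer passed without the variance trend (adjusted p = 0.0646), or when parental replicate 2 (0.37, adjusted p = 0.0772) or either S1a array was left out (0.46 without replicate 1, adjusted p = 0.0825, and 0.4 without replicate 2, adjusted p = 0.124).

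PLS3 (201215_at), the T-plastin of solid tissues, was bright in all populations. It read 6710.3 and 7330.1 units in parental cells, 6717 and 6492 in S1a, and 6833 and 7057 in S1b, and the groups overlapped. The log2 change was -0.05 ± 0.077 in the mean of both isolates (SE, limma adjusted p = 0.628), with a 95% interval from -0.22 to 0.12, which is a ratio between 0.858 and 1.09. No direction can be given for it, since the sign turned with median centring (0.14) and without parental replicate 2 (0.01).

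LCP1 (208885_at), the leukocyte plastin, was dim. It read 93.5 and 81.9 units in parental cells, 44.8 and 55.9 in S1a, and 84.3 and 70 in S1b. Both S1a arrays lay below all others, while S1b overlapped the parental range. The log2 change in S1a was -0.76 ± 0.33 (SE, limma adjusted p = 0.0961, unadjusted p = 0.0414) and in S1b -0.18 ± 0.33 (limma adjusted p = 0.699), so neither passed. The difference between S1b and S1a was 0.58 with a 95% interval from -0.14 to 1.3 (limma adjusted p = 0.478). The S1a value passed without the variance trend (adjusted p = 0.0288). Beside it, the summed signal of the 9 blood cell markers was 1529.7 to 1584 units in parental cells, 2329 to 2496 in S1a and 2443 to 2580.5 in S1b. Most of this sum was LAPTM5, a lysosomal membrane protein, at 1158 units in parental cells, 2068 in S1a and 2274 in S1b. Its log2 rise in both isolates was 0.91 (limma adjusted p = 1.64e-05). Of the 5 markers tested, 1 rose and 1 fell, with a median log2 change of -0.53 against -0.05 over all tested. The marker that fell was CD14 (-1.08, limma adjusted p = 0.0374), which did not pass under the other normalizations (adjusted p from 0.0745 to 0.101). CD14 read 86.9 units in parental cells, 56.9 in S1a and 26.2 in S1b. PTPRC, the pan-leukocyte CD45, was at 30.1, 20.7 and 21.2 units in the same order, below the filter. The part of such cells in the LCP1 signal was not tested.

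ACTN1, which encodes the alpha-actinin of stress fibres and focal adhesions, rose with all 3 of its probe sets. The probe set 211160_x_at read 1899 and 1702 units in parental cells, 3564 and 4456 in S1a, and 4157 and 3771 in S1b. The isolates overlapped each other and lay clear of the parental arrays. Its rise was 1.15 ± 0.12 on the log2 scale in S1a (SE, limma adjusted p = 6.35e-05), a ratio of 2.23, and 1.14 ± 0.12 in S1b (limma adjusted p = 5.08e-05), a ratio of 2.2.

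The second ACTN1 probe set, 208637_x_at, read 2254 and 2731 units in parental cells, 4341 and 4738 in S1a, and 4275 and 3854 in S1b. All isolate arrays were higher than both parental ones, with S1a slightly above S1b. The rise was 0.87 ± 0.11 in S1a (log2, SE, limma adjusted p = 0.000239) and 0.71 ± 0.11 in S1b (limma adjusted p = 0.000684). The third ACTN1 probe set, 208636_at, read 6986 and 6832 units in parental cells, 8334 and 8592 in S1a, and 9249 and 8570 in S1b, again without overlap with parental cells. Its rise was small, 0.29 ± 0.088 in S1a (log2, SE, limma adjusted p = 0.0265), a ratio of 1.22, and 0.37 ± 0.088 in S1b (limma adjusted p = 0.00863), a ratio of 1.29. These smaller calls ended without S1a replicate 1 or 2 for S1a (adjusted p = 0.13 and 0.187) and without S1b replicate 1 for S1b (0.0772). For S1a the call also ended with no filter (adjusted p = 0.0566), without the variance trend (0.0919) and with the replicate number as a block (0.0557), and for S1b without the variance trend (0.0509).

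The suffix _x_at marks probe sets with probes that can bind other transcripts too, and both larger ACTN1 rises came from such probe sets. PDLIM4, ACTB, PRSS3P2 and COL13A1, named below, were also read from such probe sets. Within an array, the log2 ratio of 208636_at to 211160_x_at was 1.88 and 2 in parental cells, 1.22 and 0.95 in S1a, and 1.15 and 1.18 in S1b. It was lower by 0.81 in the isolates, with no overlap between the groups (difference -0.81, exact permutation test, two-sided, p = 0.133, n = 4 and 2, the smallest possible). This design cannot reach 0.05, and over the 4 pairs of probe sets of FSCN1 and ACTN1 the adjusted value was 0.178. The corresponding difference was -0.46 between 208636_at and 208637_x_at (p = 0.133, exact permutation test) and -0.35 between 208637_x_at and 211160_x_at (p = 0.267, exact permutation test). The fitted ACTN1 rise ran from 0.33 to 1.14 on the log2 scale in the mean of both isolates, depending on the probe set.

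ACTN4 (200601_at), the alpha-actinin linked to motility, changed little. It read 3719 and 3846 units in parental cells, 4351 and 4735 in S1a, and 4243 and 4011 in S1b. All 4 isolate arrays were higher than both parental arrays, by a small margin. In S1a the rise was 0.26 ± 0.088 (log2, SE, limma adjusted p = 0.0399), a ratio of 1.2, and in S1b the value was 0.13 ± 0.088 (limma adjusted p = 0.293), a ratio of 1.09. For both isolates together the value was 0.19 ± 0.076 (limma adjusted p = 0.0627), and it passed with median centring (0.38, adjusted p = 0.00628) and with the filter at the 60th percentile (adjusted p = 0.0484). The S1b value passed with median centring (0.32, adjusted p = 0.0398). The S1a call ended without any 1 of 5 arrays (adjusted p between 0.0558 and 0.287), parental replicate 2 being the exception, and with the replicate block (0.071), no filter (0.0667), no variance trend (0.126) or only the groups compared (0.0554).

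**Figure D3:**
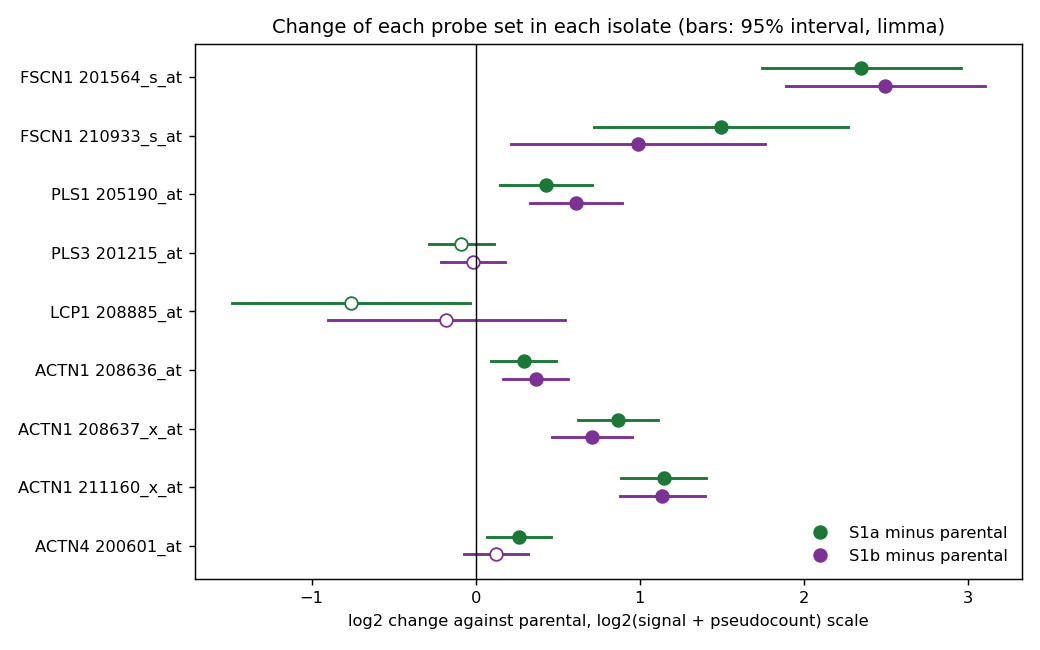
The log2 change of each probe set against parental in S1a and in S1b, with 95% intervals from limma; filled points have an adjusted p under 0.05. FSCN1 201564_s_at has the highest values (2.35 and 2.5), the 3 ACTN1 probe sets run from 0.29 to 1.15, and the intervals of PLS3 span 0.

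Between S1b and S1a, none of the 9 probe sets passed with limma, and none had an unadjusted p under 0.05; 1.51% of all probe sets tested passed. The values ran from -0.51 for FSCN1 210933_s_at (95% interval -1.28 to 0.27) to 0.58 for LCP1. For FSCN1 201564_s_at the difference was 0.15 (95% interval -0.46 to 0.75), which leaves a ratio between 0.727 and 1.69. For ACTN1 211160_x_at it was -0.01 (-0.27 to 0.25), and for ACTN4 -0.14 (-0.33 to 0.06).

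The nearest relatives of these genes gave little signal. FSCN2 and FSCN3, the muscle alpha-actinins ACTN2 and ACTN3, the villin-type bundlers VIL1 and AVIL, and espin (ESPN) were all below the filter on low signals. Their summed signal was 108 to 198 units in parental cells, 107 to 130 in S1a and 135 to 155 in S1b. None of these 7 genes was tested.

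Of 25 other actin crosslinkers and side-binding proteins listed, 20 had a named probe set and 19 were tested. In the mean of both isolates 2 of the 19 rose and 8 fell, beside 19.5% and 22.5% of all probe sets tested, and the median log2 change was -0.23 against -0.05. With median centring, 3 rose and 4 fell. DBN1 (drebrin), which binds along filaments, had a log2 rise of 2.71 ± 0.15 (SE, limma adjusted p = 6.62e-07), from 289 and 184 units to 1208 and 1269 in S1a and 1788 and 2018 in S1b. Every isolate array was above both parental ones; S1b and S1a were not shown to differ (limma adjusted p = 0.132). PLEC (plectin), which links actin to intermediate filaments, rose by 0.83 ± 0.095 (limma adjusted p = 8.52e-05). CALD1 (caldesmon), a filament-side protein that restrains myosin, fell by 1.15 ± 0.087 (limma adjusted p = 5.82e-06). EPS8, a capping and bundling protein, fell by 0.98 ± 0.096 (limma adjusted p = 2.97e-05), from 1434 and 1466 units to 765 and 762 in S1a and 641 and 776 in S1b.

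Genes of filopodium formation moved in both directions. Of 20 listed, 16 were tested, and 7 rose and 3 fell, beside 19.5% and 22.5% of all tested. The median log2 change was 0.28, against -0.05 over all tested. DAAM1, a formin that elongates filaments and binds fascin, fell by 2.14 ± 0.17 (log2, SE, limma adjusted p = 8.05e-06), from 544 and 559 units to 127 and 144 in S1a and 130 and 94.1 in S1b. The formin DIAPH2 fell by 1.43 ± 0.16 (limma adjusted p = 6.12e-05), and CDC42, the small GTPase that triggers filopodia, fell by 0.89 ± 0.13 (limma adjusted p = 0.000312), although 1 of its 3 other tested probe sets gave the opposite sign. Another tested formin, DIAPH1, named after its values were seen, rose by 0.25 ± 0.083 (limma adjusted p = 0.0361); it did not pass with quantile normalization (0.065) or cyclic loess (0.0684). PRKCA, the protein kinase C that phosphorylates fascin and releases it from actin, rose by 0.72 ± 0.085 (limma adjusted p = 9.57e-05), from 1037 and 1014 units to 1531 and 1709 in S1a and 1853 and 1687 in S1b. In S1b alone 8 rose and 3 fell (17.3% and 19.8% of all tested), and in S1a 3 and 3 (16.5% and 18.4%); between S1b and S1a none passed.

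Of 18 partners of alpha-actinin and focal adhesions listed, 16 were tested, and 5 rose and 5 fell, beside 19.5% and 22.5% of all tested. The median log2 change was 0.23, against -0.05 over all tested, and with median centring 9 rose and 3 fell. The LIM protein gene TES (testin) fell by 0.71 ± 0.074 (log2, SE, limma adjusted p = 4.46e-05). LPP, another LIM protein of adhesions, fell by 0.79 ± 0.12 (limma adjusted p = 0.000615). PDLIM4, which binds alpha-actinin, fell by 1.24 ± 0.14 (limma adjusted p = 7.83e-05). CSRP1, a LIM protein that binds alpha-actinin and zyxin, rose by 0.56 ± 0.075 (limma adjusted p = 0.000214), from 2026 and 2080.0 units to 2654 and 2744 in S1a and 3548 and 3273 in S1b.

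Of 4 actin genes tested, 1 rose and 1 fell, with a median of -0.32 against -0.05 over all tested. ACTA2, the smooth muscle form, had a log2 rise of 1.44 ± 0.22 (SE, limma adjusted p = 0.000457), from a mean of 53.2 units to 187 in S1a and 121 in S1b. ACTB, the cytoplasmic beta form, fell by 0.6 ± 0.12 (limma adjusted p = 0.00231), from 29733 and 39230.0 units to 20367 and 22219 in S1a and 24742 and 23075 in S1b. The size of the ACTB fall depended on the normalization. The log2 change was -0.11 with quantile normalization (limma adjusted p = 0.0313), -0.56 with cyclic loess and -0.41 with median centring. ACTG2 and ACTC1 had values of -0.27 ± 0.36 and -0.38 ± 0.44 and did not pass (limma adjusted p = 0.574 and 0.519).

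**Figure D4:**
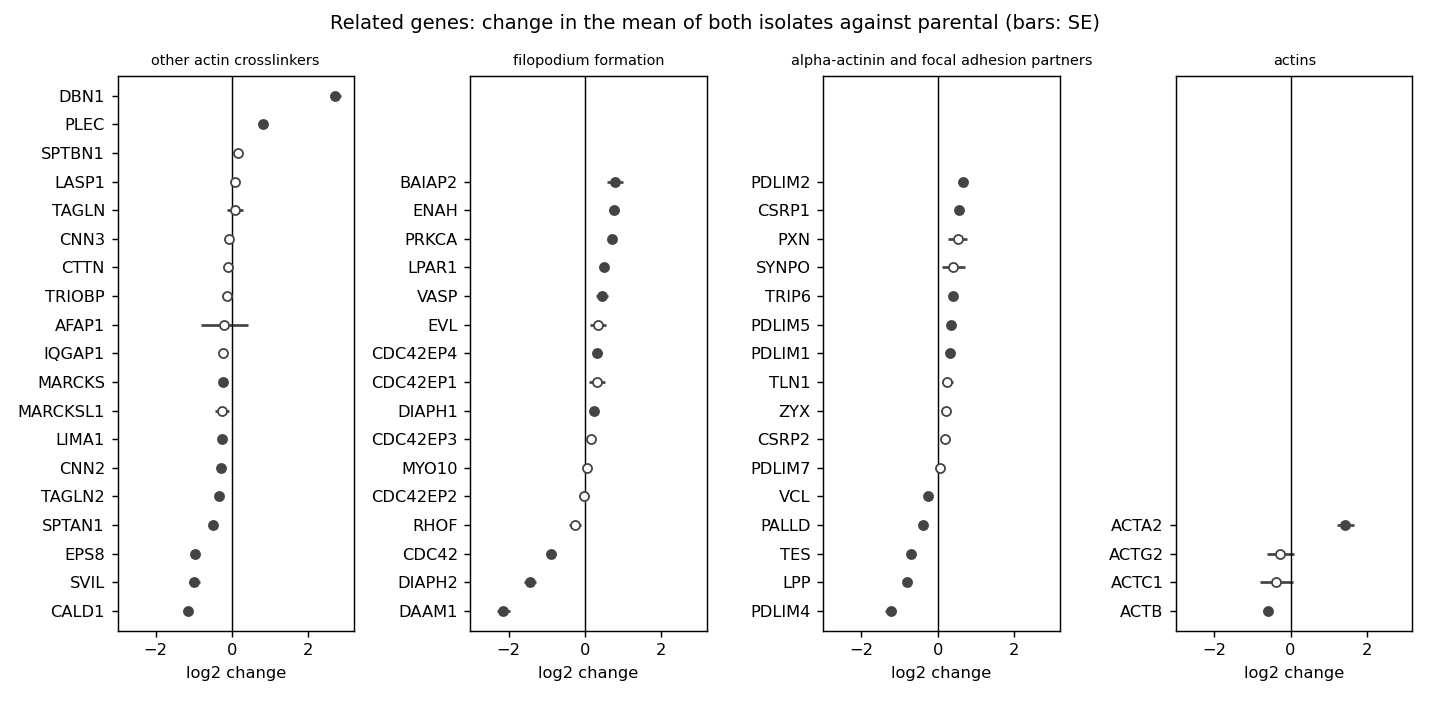
Log2 change (mean of both isolates minus parental, bars SE) of the tested genes of 4 lists; filled points have a limma adjusted p under 0.05. DBN1 stands at 2.71 among the crosslinkers, DAAM1 at -2.14 among the filopodium genes, and ACTB lies below 0 while ACTA2 lies above it.

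Over all probe sets tested, 19.5% rose and 22.5% fell, and the counts of neighbours, 10 for each gene, stand beside those shares. Of the 10 tested genes nearest to FSCN1 on its chromosome, in the order of the RefSeq table, none rose and 5 fell (1 and 2 with median centring), with a median log2 change of -0.38 and a range from -1.09 to 0.45. ACTB is the measured gene next to it and fell as given above, and WIPI2, an autophagy gene, fell by 0.42 ± 0.083 (limma adjusted p = 0.00243; 0.0918 with median centring). Around ACTN1, 2 of 10 rose (RDH11 at 0.45 ± 0.14 had the smaller p of these, and did not pass with quantile normalization, adjusted p = 0.0534) and 1 fell, SUSD6 by 0.7 ± 0.18 (limma adjusted p = 0.0103), with a median of 0.06. Around PLS1 and ACTN4, 4 of 10 rose and none fell, with medians of 0.27 and 0.2; the collagen-modifying enzyme PLOD2 at 1.07 ± 0.096 and the sulfotransferase CHST2 at 0.5 ± 0.12 led near PLS1, and the protease inhibitor SPINT2 at 0.6 ± 0.071 and EIF3K, a translation initiation subunit, at 0.44 ± 0.086 near ACTN4. Around LCP1, 3 rose and 1 fell (median 0.06; 5 and 1 with median centring), with GTF2F2 at 1.47 ± 0.088 and ESD at 0.76 ± 0.073 leading. PLS3 lay among genes of which 2 rose and 6 fell (median -0.37; 2 and 3 with median centring); those with the smallest p-values were IL13RA2, from 6.65 to 484 units, and CHRDL1, from 89.6 to 701 units.

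**Figure D5:**
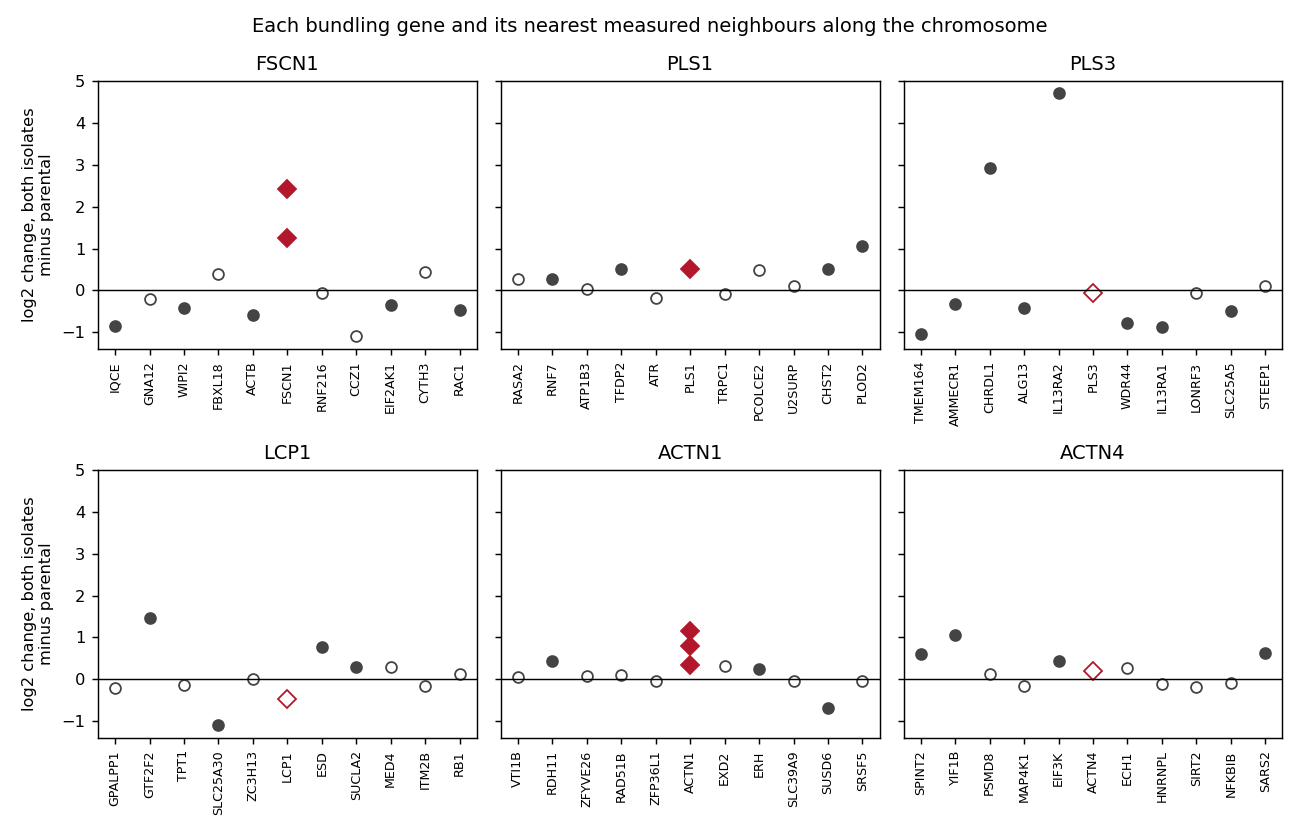
Log2 change (mean of both isolates minus parental) of each bundling gene's probe sets (red diamonds) and of the 5 tested genes on either side in chromosome order (circles); filled symbols have a limma adjusted p under 0.05. Both FSCN1 diamonds (2.42 and 1.24) stand above all 10 neighbours, which run from -1.09 to 0.45.

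The genes whose log2 signals ran most like FSCN1 differed between its probe sets. Among 1639 named probe sets whose group means spanned at least 1 on the log2 scale, those most like 201564_s_at over the 6 arrays were the kinase gene NEK3 (Pearson r = 0.9977), PRSS3P2, a trypsinogen pseudogene (0.997), and the phospholipase gene PLCB1 (0.9956). Those most like 210933_s_at were DEF8 (0.9798), the protein kinase gene PRKCQ (0.9782) and ATP10A, a phospholipid flippase (0.9741). Parental means were low for PLCB1 (12.3 units), PRKCQ (25.4) and ATP10A (36.7). These coefficients rest on 6 arrays in 3 groups and describe likeness only.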

How the data were processed

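Total RNA of 6 samples was measured on Affymetrix arrays, 2 per population. Each deposited intensity is a linear probe-set signal that, per the submitters' processing notes, came from MAS5; its version is not given in the sources used here. Every array had the same trimmed mean signal of 500.2, and that scaling was kept. Arrays have no read depth, so their number limits the precision.

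Of 22215 probe sets without the Affymetrix controls, 19064 carried 1 gene symbol. Signals were analysed as log2(signal + 3.94), the pseudocount being the 10th percentile of all signals. The 13329 probe sets whose mean over the 6 arrays reached the 40th percentile (44 units) were tested singly with limma 3.58.1 in R 4.3.3. The fit had 3 group means and variances that follow the mean signal. Benjamini-Hochberg adjustment ran over all probe sets of a contrast, with a threshold of 0.05. The procedure was tested on simulated data. SciPy 1.17.1 gave the exact permutation tests.

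The members and lists were chosen with earlier results of these data known, so counts over them describe them only. A listed gene was read from its probe set with the highest mean. Up to 4 genes per list were named by smallest p-value in the mean of both isolates, the 3 genes most like each FSCN1 probe set and each other member probe set past the threshold in a comparison (which leaves out PLS3 and LCP1), and the 2 of the 10 nearest measured neighbours with the smallest p-values. The alternatives were other pseudocounts, filters and normalizations, other variance models, the replicate number as a block, only the groups compared, and each array left out. The counts of lists and neighbours were also run under the 3 other normalizations, chosen after seeing the data. Symbols and gene order came from a RefSeq table (GRCh38.p14).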

Additional observations from a re-analysis of the deposited data

How the results depend on the processing

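Of 710 alternative values of the bundling genes, 660 kept their direction and side of the threshold, 30 lost the call, 4 gained one, 13 turned sign and 3 counts moved by over 1.5 times. The count of member probe sets past the threshold moved for S1a against parental, from 7 to 4 without the variance trend, and to between 3 and 6 with 1 array left out. For both isolates together it stayed between 5 and 7, for S1b between 4 and 7, and for S1b against S1a at 0. No sign turned for a called value. PLS3 turned in S1a with median centring (0.10), in S1b with quantile normalization (0.0019) and median centring (0.18), and in both isolates with median centring (0.14). With 1 array left out PLS3 ran from -0.078 to 0.049 in S1b, turning without parental replicate 2 or S1b replicate 1, and from -0.11 to 0.013 in both isolates, turning without parental replicate 2. LCP1 turned in S1b with quantile normalization (0.039), cyclic loess (0.046) and median centring (0.013). Between S1b and S1a, ACTN1 turned for 208636_at with quantile normalization (-0.025), and for 211160_x_at it ran from -0.17 to 0.15 with 1 array left out, turning without replicate 2 of S1a or of S1b. The causes were not tested.

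Over all probe sets tested, arrays with the same replicate number did not deviate together (correlations of 0.0049, -0.05 and -0.06 between populations). The numbers were therefore not taken to pair them. With the replicate block, 5 member probe sets passed in S1a, 6 in S1b, 6 in both isolates and 0 between S1b and S1a. The FSCN1 ratio of 201564_s_at to 210933_s_at differed by 0.98 to 1.38 with 1 array left out. Detection calls were not used here, so dim signals such as those of LCP1, or of FSCN1 201564_s_at in parental cells, could not be called absent.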

Other observations

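The genes most like the other bundling probe sets over the 6 arrays, taken from the same 1639 probe sets, were other ones again. For PLS1 they were LDOC1 (Pearson r = 0.9855, from a mean of 230 units in parental cells to 471 in S1a and 692 in S1b), PRKAR2B, a regulatory subunit of protein kinase A (0.9854), and the mitotic kinase PLK1 (0.9838). For ACTN1 208636_at they were the scaffold HOMER3 (0.996), the stress-induced phosphatase subunit PPP1R15A (0.9948) and RTN1 (0.9948), for 208637_x_at RGS3 (0.9938), the collagen COL13A1 (0.9933) and RPS21 (0.9913), and for 211160_x_at MAPKAPK5-AS1 (0.9975), the phosphatase PPM1F (0.9964) and RBM8A (0.9948). For ACTN4 they were NPM3 (0.9736), LZTS3 (0.9474) and SSX1 (0.9363). Parental means were low for RTN1 (2.46 units) and SSX1 (9.39). No gene was named for more than 1 probe set.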
